A study of Mus musculus with 12 samples.

Results

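The 39 genes described here are hepatic cytochrome P450 genes, genes of bile acid synthesis and transport, and the nuclear receptors that act on them. They were given as a list of symbols, and all 39 were found by symbol (GENCODE release M21) among the 52636 gene identifiers of the count table. By role they were 23 P450 genes of drug, steroid and fatty acid oxidation, 7 genes of bile acid synthesis and conjugation, 5 transporters and 4 nuclear receptors. Bulk RNA was sequenced from liver and tumor of female FVB/NJ mice, wild type in the labels, each carrying a transplanted piece of an MMTV-HER2 transgenic Founder #5 (Fo5) tumor in a mammary fat pad. MMTV is the mouse mammary tumor virus promoter, which drives HER2 mainly in mammary epithelium, and every mouse of every group carried the same tumor line. Treatment was 1 intravenous dose of 5 mg/kg anti-HER2/CD3 T cell-dependent bispecific antibody (TDB, 4D5-2C11) or the same volume of vehicle buffer, and organs were taken 24 h later. The 4 groups (liver vehicle, liver TDB, tumor vehicle, tumor TDB) held 3 libraries each from 3 mice per treatment, going by the series' design text. Mouse ages are not stated in the labels.

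Hepatic P450 enzymes are heme proteins of the endoplasmic reticulum that oxidize drugs, steroids and fatty acids. Bile acids are made from cholesterol by a classic route that starts with Cyp7a1 and an alternative route through Cyp27a1 and Cyp7b1, while Cyp8b1 sets the share of cholic acid. Nr1h4 (the farnesoid X receptor, FXR) is the bile acid sensor that induces Nr0b2 (small heterodimer partner, SHP), a repressor of Cyp7a1 and Cyp8b1, and Nr1i3 (the constitutive androstane receptor, CAR) and Nr1i2 (the pregnane X receptor, PXR) induce Cyp2b and Cyp3a genes.

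Promoter windows, the 250 bases before the annotated start, were taken from RefSeq (GRCm38.p6) for 31 of the 39 genes. Cyp4a10, Cyp4a14, Cyp7a1, Cyp7b1, Cyp39a1, Cyp2c54, Cyp2d22 and Baat were not matched. The windows shown are those that hold CAAAGTCCA, the letters of a site bound by the hepatocyte factor HNF4. This motif was picked after the windows had been read. Searched on both strands, it was in 4 of the 31 windows (12.9%) and in 0.384% of all 32851 RefSeq windows of the same length. Of the 4 genes, Cyp8b1 and Cyp2c40 had an unadjusted p below 0.05 in the liver comparison, both lower, and Cyp2c70 and Cyp3a11 did not. By that measure 2.25% of all genes tested and 12.8% of the 39 were lower. A link between the motif and the antibody response was not tested. All 4 lie on the minus strand: Cyp8b1 at chr9:121916306-121916555, Cyp2c40 at chr19:39812815-39813064, Cyp2c70 at chr19:40187287-40187536 and Cyp3a11 at chr5:145879855-145880104. Each is printed 5′ to 3′ in gene direction, and capitals mark matches of CAAAGTCCA, AGGTCA and TATAAA on either strand.
Cyp8b1: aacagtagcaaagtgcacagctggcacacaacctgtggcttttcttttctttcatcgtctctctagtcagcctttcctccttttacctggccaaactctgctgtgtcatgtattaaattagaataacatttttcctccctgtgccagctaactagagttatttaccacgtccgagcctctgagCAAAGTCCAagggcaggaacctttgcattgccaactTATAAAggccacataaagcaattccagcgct
Cyp2c40: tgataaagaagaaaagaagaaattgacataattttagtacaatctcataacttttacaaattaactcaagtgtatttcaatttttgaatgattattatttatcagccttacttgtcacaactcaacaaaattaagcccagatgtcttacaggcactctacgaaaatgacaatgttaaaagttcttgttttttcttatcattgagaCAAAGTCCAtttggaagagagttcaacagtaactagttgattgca
Cyp2c70: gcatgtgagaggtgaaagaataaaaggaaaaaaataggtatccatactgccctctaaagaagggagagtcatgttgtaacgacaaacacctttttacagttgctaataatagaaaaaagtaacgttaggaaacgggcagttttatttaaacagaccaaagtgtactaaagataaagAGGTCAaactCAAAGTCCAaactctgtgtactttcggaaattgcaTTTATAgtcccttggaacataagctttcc
Cyp3a11: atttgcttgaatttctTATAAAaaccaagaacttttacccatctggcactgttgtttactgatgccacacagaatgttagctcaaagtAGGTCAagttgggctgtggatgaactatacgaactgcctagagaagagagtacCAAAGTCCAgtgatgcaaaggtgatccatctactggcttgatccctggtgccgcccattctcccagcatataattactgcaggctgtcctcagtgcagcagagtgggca
The CAAAGTCCA match began 67 bases before the start in Cyp8b1, 45 in Cyp2c40, 64 in Cyp2c70 and 109 in Cyp3a11. The nuclear receptor half-site AGGTCA was in 12 of the 31 windows (38.7%) against 14.0% of all windows, and the TATA box TATAAA was in 16 (51.6%) against 12.4%. The STAT site TTCNNNGAA was in 3 of 31 windows, those of Nr0b2, Slc10a1 and Slco1b2 (9.68% against 7.02%), and the C/EBP site TTGCNNAA was in 5 (16.1% against 9.56%). A match describes letters in a window and is not evidence of binding.

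Liver libraries held 18460159 to 25542980 counts each, and tumor libraries 20796764 to 29396324. Hepatocyte markers (13 genes) summed to 109080 to 195047 CPM (counts scaled to library size) in liver libraries and to 33.7 to 67.4 CPM in tumor libraries. Liver TDB 3 stood apart from the other liver libraries. Its first principal component score was 87.0 against -53.6 to 5.92 in the others. Mitochondrial genes held 2.05% of its counts against 0.847% to 1.28%. Its deviation from the mean of its group was larger in longer genes (Spearman's rho 0.63 across genes, against -0.59 to 0.46 in the other liver libraries). Deviations cancel out within a group, so these rho values depend on each other and do not by themselves set liver TDB 3 apart. In each liver group, library 2 had the highest level of the acute phase transcript Saa1 (serum amyloid A): 3495 CPM in liver vehicle 2 against 41.1 and 60.6 in liver vehicle 1 and 3, and 1820 CPM in liver TDB 2 against 231 and 216 in liver TDB 1 and 3. The plot of liver fold changes gives each gene's estimate without liver TDB 3 and without liver vehicle 2.

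The 39 genes held 2.21%, 1.78% and 2.12% of all counts in liver vehicle 1, 2 and 3, and 1.90%, 1.54% and 2.12% in liver TDB 1, 2 and 3. Per length (TPM, counts scaled to exonic length and library total), the highest liver vehicle levels were those of Cyp2e1 (4506 ± 1310, SD, n = 3), which oxidizes ethanol and small solvents, and Cyp3a11 (1607 ± 286), a main drug-oxidizing enzyme. Next came Cyp2d26 (980 ± 169), Cyp2c70 (874 ± 50.5), which makes the muricholic acids of mice, and Cyp2f2 (860 ± 288), which oxidizes naphthalene. The lowest were Cyp2d9 (6.38 ± 4.34 TPM) and the oxysterol hydroxylase Cyp39a1 (15.4 ± 2.97 TPM). Mouse-to-mouse variation in the vehicle livers was uneven: the coefficient of variation of CPM was 106% for Cyp7a1, 67.8% for Cyp4a14, 60.8% for Cyp2d9 and 47.2% for Cyp4a10. Its median over the 39 genes was 18.1%, against 16.2% over 7199 tested genes with at least 10 CPM. Nr1h4 (4.48%), Slco1b2 (4.27%) and Slc10a1 (4.82%) varied least.

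**Figure D1:**
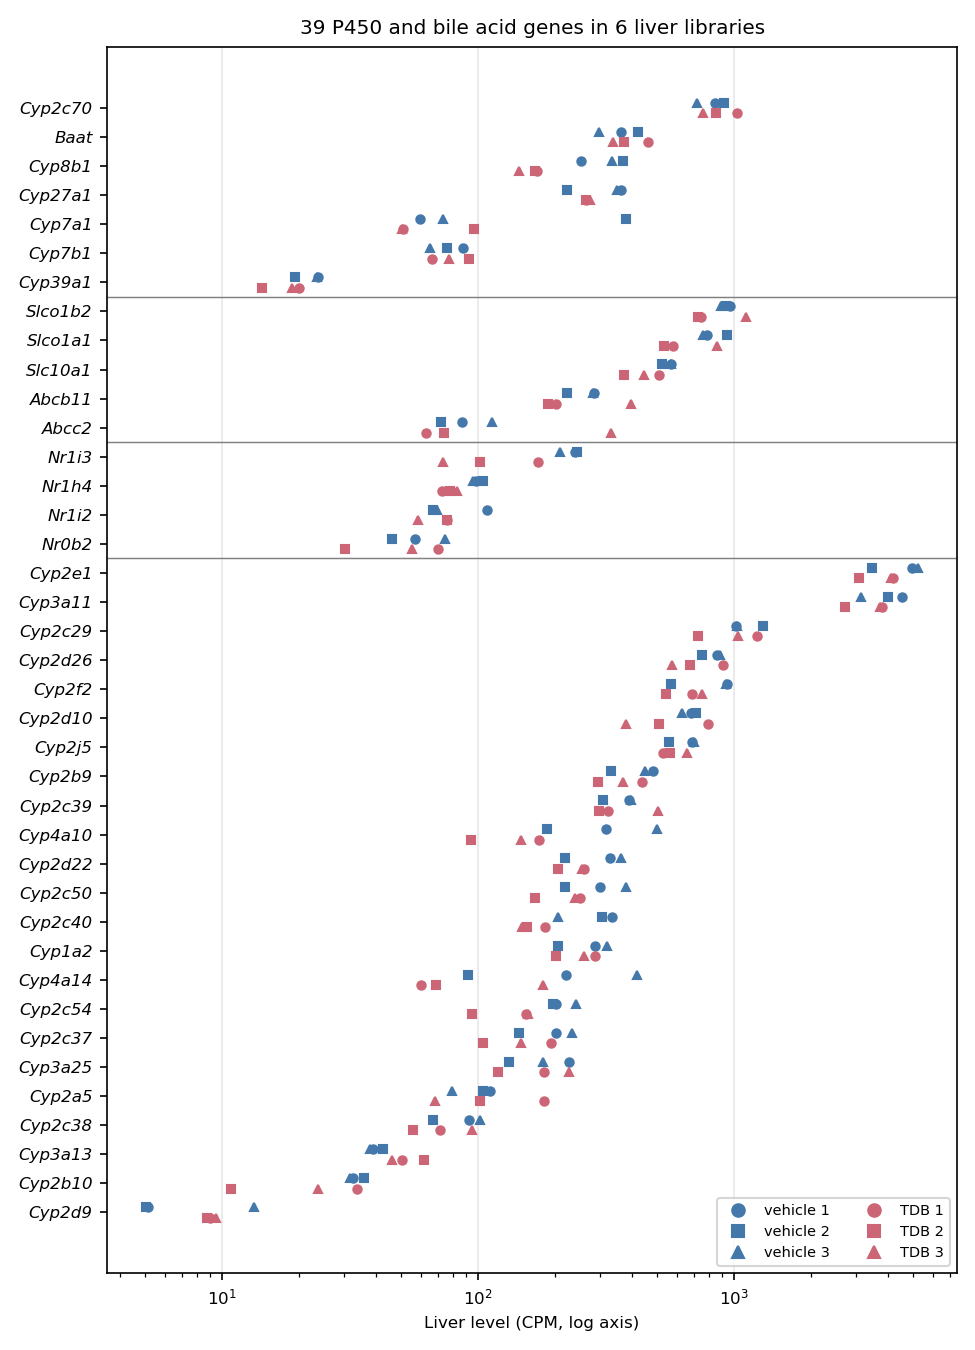
Liver levels of the 39 genes in CPM (log axis), 1 point per library, with blue for vehicle and red for TDB and shapes for library numbers. Lines separate, from the top, bile acid synthesis, transporters, nuclear receptors and other P450 genes. The range runs from Cyp2d9 (5.04 to 13.3 CPM) to Cyp2e1 (3068 to 5253 CPM), and for most genes the groups overlap.

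In liver, antibody was compared with vehicle to ask whether these hepatocyte genes had moved 24 h after dosing. All 39 genes were measured well enough to be tested, and edgeR's quasi-likelihood test called 0 of them at an adjusted p below 0.05, where 0.535% of the 13657 genes tested were called (0.513% higher, 0.0220% lower). limma-voom also called 0 (57 among all genes), and DESeq2 called Cyp8b1 (adjusted p = 0.0055), among 320 genes it called in either direction. At an unadjusted p below 0.05, 5 of the 39 were lower with antibody (12.8%, against 2.25% of all genes tested) and 0 were higher (against 5.84%). The fitted log2 fold change was below 0 for 31 of 39 genes (79.5%, against 45.8% of all genes), with a median of -0.22 against 0.04. Scaling to total counts, an alternative chosen after seeing the data, moved the median of all genes to 0.15 and that of the 39 genes to -0.12, with 28 of 39 below 0. The antibody values lay below every vehicle value for 7 of 39 genes (17.9%, against 5.46% of all genes tested), namely Cyp8b1, Cyp2c40, Cyp2c54, Cyp4a10, Slc10a1, Nr1h4 and Nr1i3. In CPM scaled to total counts it was 6 genes (against 3.67% of all genes), since Slc10a1 then overlapped. They lay above every vehicle value for 1 gene, Cyp3a13 (2.56%, against 9.11%). These shares describe a list chosen with results of these data known.

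Other measures moved in the same livers. The summed hepatocyte markers were 168615 to 195047 CPM with vehicle and 109080 to 146068 CPM with antibody, with no overlap. Of these 13 markers, 11 had a fold change below 0 (against 45.8% of all genes tested), and their median was -0.57. At an unadjusted p below 0.05, 4 were lower (against 2.25% of all genes tested) and 0 were higher. Of the 13, 0 were called, and none was at 0 in any liver library. Albumin (Alb) made up most of the sum, at 114141 to 144275 CPM with vehicle and 76665 to 95457 CPM with antibody. Alb itself had a fold change of -0.57 (adjusted p = 0.461, edgeR). T cell markers (5 genes) summed to 6.77 to 8.04 CPM with vehicle and 14.3 to 18.5 CPM with antibody, and none of the 5 was at 0. In bulk tissue, fewer cells of a type and less RNA per cell cannot be told apart. The part of these changes in the values of the 39 genes was not tested.

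**Figure D2:**
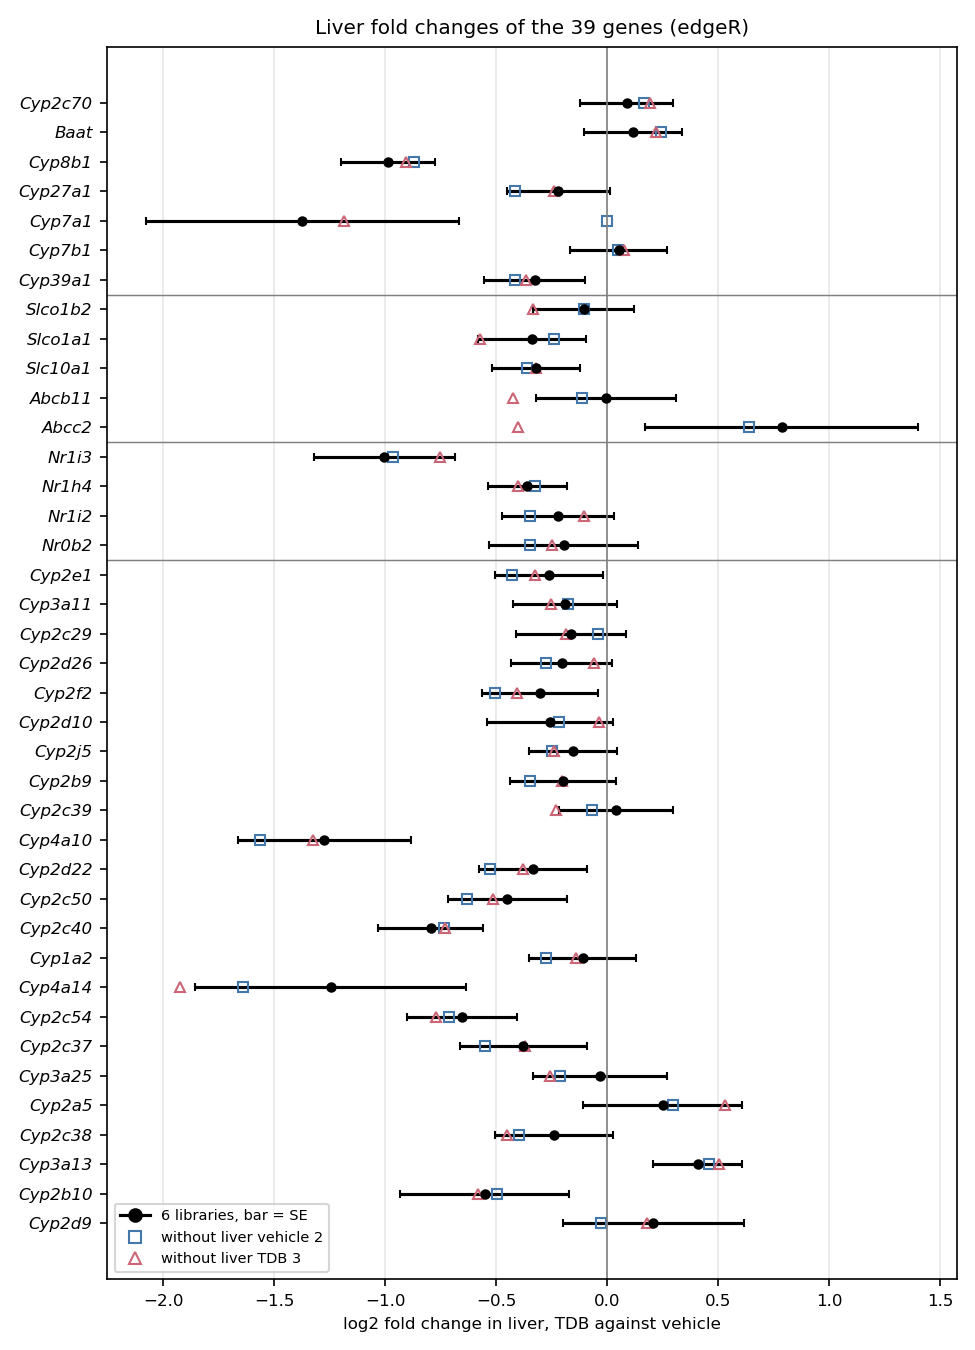
Fitted log2 fold changes in liver, antibody against vehicle (black points, bars are 1 SE), with the estimates without liver vehicle 2 (squares) and without liver TDB 3 (triangles). Points left of 0 are lower with antibody, as for 31 of 39 genes, and Cyp7a1 and Abcc2 shift most when 1 library is left out.

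Among the bile acid synthesis genes, 4 of 7 fold changes were below 0 (57.1%, against 45.8% of all genes tested) and the median was -0.22. Cyp8b1, the sterol 12α-hydroxylase of cholic acid synthesis (chr9:121914356-121916305, minus strand), was at 253, 367 and 333 CPM in liver vehicle 1, 2 and 3 and at 170, 167 and 144 CPM in liver TDB 1, 2 and 3. Every antibody liver was below every vehicle liver, and the antibody livers were close to each other (160 ± 14.0 against 318 ± 58.4 CPM, SD, n = 3). The log2 fold change was -0.99 (SE 0.21, unadjusted p = 0.0017, adjusted p = 0.143, edgeR). It was -0.91 without liver TDB 3 and -0.87 without liver vehicle 2, and the adjusted p ranged from 0.0055 to 0.606 over 19 alternatives. No 50-base stretch of its longest transcript occurs in another gene's transcripts.

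Cyp7a1, the rate-limiting enzyme of the classic route, was at 59.1, 380 and 72.8 CPM with vehicle and at 51.1, 96.0 and 50.4 CPM with antibody. The groups overlapped, and the vehicle mean was set by liver vehicle 2. In each group library 2 was the highest for Cyp7a1, as for Saa1. The log2 fold change was -1.37 (SE 0.71, adjusted p = 0.715, edgeR) with all libraries and -0.002 without liver vehicle 2. Cyp27a1, the mitochondrial sterol 27-hydroxylase of the alternative route, was at 363, 223 and 349 CPM with vehicle and at 265, 263 and 275 CPM with antibody. Its antibody values fell within the vehicle range (log2 fold change -0.22, SE 0.23, adjusted p = 0.837, edgeR). Cyp7b1, the oxysterol 7α-hydroxylase of that route, was at 87.6, 75.5 and 64.7 CPM with vehicle and at 66.3, 92.6 and 77.3 CPM with antibody, which overlap (log2 fold change 0.05, SE 0.22). Cyp2c70 was at 845, 917 and 717 CPM with vehicle and 1024, 853 and 757 CPM with antibody. Its groups overlapped too, as did those of Baat, which joins bile acids to taurine (360 ± 62.0 against 390 ± 64.8 CPM), and of Cyp39a1 (22.1 ± 2.45 against 17.7 ± 2.94 CPM).

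The 4 nuclear receptors all had fold changes below 0 (against 45.8% of all genes tested), with a median of -0.29. Nr1i3 (CAR) was at 240, 244 and 210 CPM with vehicle and at 171, 102 and 72.7 CPM with antibody. The groups did not overlap and the antibody livers were spread widely, with liver TDB 3 lowest. The log2 fold change was -1.004 (SE 0.32, unadjusted p = 0.014, adjusted p = 0.368, edgeR), and -0.75 without liver TDB 3. Of the 50-base stretches of its longest transcript, 58.1% match transcripts of Tomm40l, as they stand or as reverse complement. Tomm40l is a gene on the opposite strand that overlaps Nr1i3. Use of strand in the counting is not given in the sources used here. In tumor, Tomm40l had 713 to 1054 counts per library, while Nr1i3 had 6 counts over all vehicle tumors and 0 over all antibody tumors. In liver, Tomm40l was at 26.9, 28.7 and 15.4 CPM with vehicle and 39.1, 31.9 and 17.9 CPM with antibody (adjusted p = 0.843, edgeR).

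Nr1h4 (FXR) was at 98.6, 104 and 95.7 CPM with vehicle and at 72.6, 77.4 and 82.8 CPM with antibody. The ranges did not overlap and both groups were tight, and the log2 fold change was -0.36 (SE 0.18; adjusted p = 0.698, edgeR). Nr0b2 (SHP), which FXR induces, was at 56.8, 46.2 and 74.5 CPM with vehicle and at 69.5, 30.1 and 55.4 CPM with antibody. Nr1i2 (PXR) was at 108, 66.9 and 69.4 CPM with vehicle and at 75.7, 75.8 and 58.5 CPM with antibody. Both overlapped between groups (log2 fold changes -0.20, SE 0.34, and -0.22, SE 0.25). The targets of CAR and PXR named above did not pass the test either. Cyp2b10 was at 32.5, 35.8 and 31.5 CPM with vehicle and at 33.5, 10.9 and 23.8 CPM with antibody. Cyp3a11 was at 4553, 3991 and 3149 CPM with vehicle and at 3803, 2707 and 3735 CPM with antibody. In both genes liver TDB 2 was the lowest of the 6 libraries, and the groups overlapped (log2 fold changes -0.55, SE 0.38, and -0.19, SE 0.24).

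**Figure D3:**
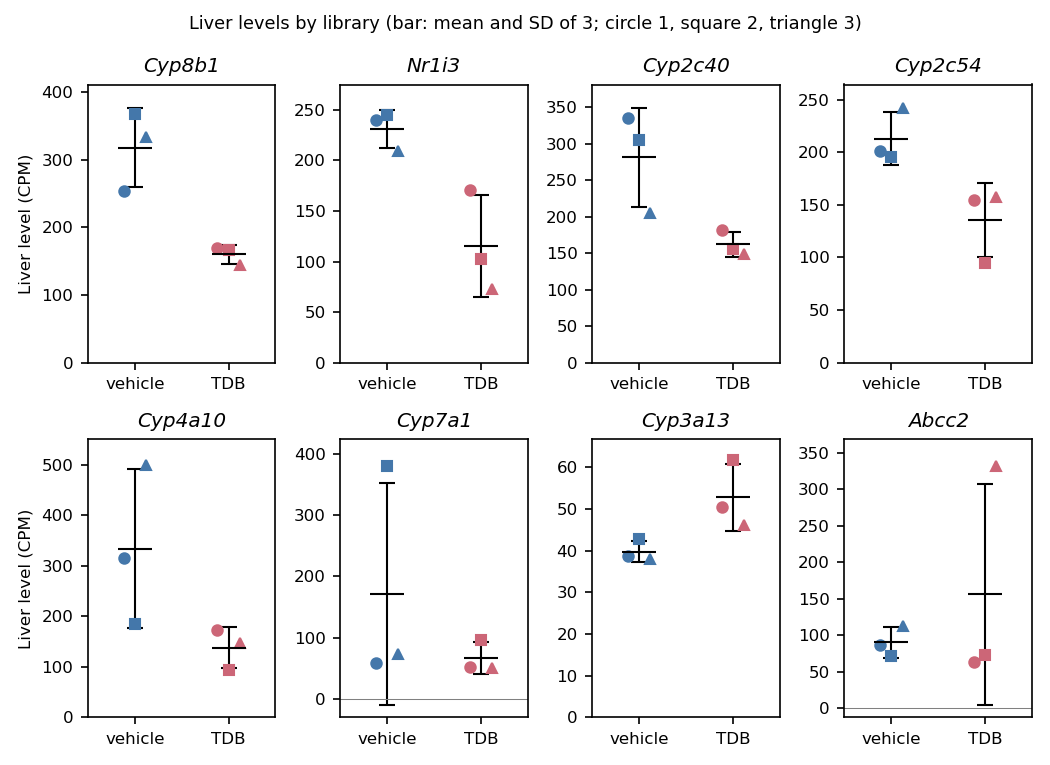
Liver CPM by library for 8 genes, with the mean and SD of 3 libraries per group. Groups do not overlap for Cyp8b1, Nr1i3, Cyp2c40, Cyp2c54, Cyp4a10 (all lower with antibody) and Cyp3a13 (higher). Of all genes tested in liver, 5.46% lay lower and 9.11% higher without overlap. A single library sets the mean for Cyp7a1 (380 CPM in liver vehicle 2) and Abcc2 (332 CPM in liver TDB 3).

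Of the 23 other P450 genes, 19 had a fold change below 0 (82.6%, against 45.8% of all genes tested) and the median was -0.24. Cyp4a10, a fatty acid ω-hydroxylase and target of PPARα, was at 316, 186 and 499 CPM with vehicle and at 173, 93.8 and 147 CPM with antibody. The groups were separated by a narrow gap, and the vehicle livers differed widely (log2 fold change -1.27, SE 0.39, unadjusted p = 0.012, adjusted p = 0.356, edgeR). Its relative Cyp4a14 was at 221, 91.2 and 419 CPM with vehicle and at 59.8, 68.8 and 180 CPM with antibody, with overlap. Its log2 fold change was -1.25 (SE 0.61), -1.92 without liver TDB 3 and -1.64 without liver vehicle 2, with a range of -1.92 to -0.60 when 1 library was left out. In both genes the highest library was liver vehicle 3.

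Cyp2c40, an arachidonic acid-oxidizing P450, was at 335, 305 and 205 CPM with vehicle and at 182, 156 and 149 CPM with antibody. The groups did not overlap (log2 fold change -0.79, SE 0.24, unadjusted p = 0.010, adjusted p = 0.335, edgeR). Of its 50-base stretches, 72.1% also occur in other genes, mostly Cyp2c69 and Cyp2c67, so reads of these genes may have been shared out by the counting. Cyp2c69 was at 839, 812 and 376 CPM with vehicle and 447, 335 and 161 CPM with antibody (log2 fold change -1.10, adjusted p = 0.544, edgeR), and Cyp2c67 had a log2 fold change of -0.18. Cyp2c54 was at 201, 196 and 242 CPM with vehicle and at 155, 94.6 and 157 CPM with antibody. Its groups did not overlap either (log2 fold change -0.65, SE 0.25, unadjusted p = 0.031, adjusted p = 0.510, edgeR), and 25.7% of its 50-base stretches occur in other genes, mostly Cyp2c50 and Cyp2c37. Of the stretches of Cyp4a10, 30.5% occur in other genes, mostly Cyp4a32 and Cyp4a31. In liver Cyp4a32 was at 3.02 to 11.1 CPM and Cyp4a31 at 0.383 to 1.79 CPM. The means of Cyp4a10 were 334 CPM with vehicle and 138 CPM with antibody. Because of shared stretches, values of these family members are uncertain, and how far was not tested.

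The most abundant P450 genes overlapped between groups. Cyp2e1 was at 4955, 3452 and 5253 CPM with vehicle and at 4197, 3068 and 4125 CPM with antibody. Cyp2d26 was at 856, 748 and 881 CPM with vehicle and at 907, 675 and 574 CPM with antibody. Cyp2f2 was at 942, 565 and 933 CPM with vehicle and at 686, 542 and 753 CPM with antibody. Within each group, library 2 was the lowest of 3 for Cyp2e1 and Cyp2f2. Cyp3a13, the gene on the other side of 0 without overlap, was at 38.7, 42.7 and 37.9 CPM with vehicle and at 50.4, 61.7 and 46.2 CPM with antibody (log2 fold change 0.41, SE 0.20, adjusted p = 0.698, edgeR). It was singled out after its values were seen, as were Cyp4a14, Cyp2b10 and the transporters named next.

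In the 13 P450 genes not yet named with their liver values, the groups overlapped in every case. Their log2 fold changes ran from -0.45 to 0.25, with 10 below 0 and 3 above, and edgeR's adjusted p lay between 0.769 and 0.981. Cyp2c50, a relative of Cyp2c54, was at 298 ± 79.8 CPM with vehicle and 219 ± 45.8 CPM with antibody (SD, n = 3), and Cyp2c37 was at 193 ± 44.5 and 148 ± 44.3 CPM. Cyp1a2, the caffeine-oxidizing target of the aryl hydrocarbon receptor, was at 269 ± 58.6 and 250 ± 43.0 CPM. Cyp2c29, Cyp2c38 and Cyp2c39 had log2 fold changes of -0.16, -0.24 and 0.04. Cyp2b9, which like Cyp2b10 belongs to the CAR-responsive Cyp2b family, was at 421 ± 79.7 and 367 ± 70.7 CPM. Cyp2a5, the coumarin 7-hydroxylase, was at 111, 104 and 78.8 CPM with vehicle and at 181, 102 and 67.9 CPM with antibody. Liver TDB 1 set the direction of its log2 fold change of 0.25, which was -0.21 without that library. In the Cyp2d family, Cyp2d10 had a log2 fold change of -0.26, Cyp2d22 of -0.34 and Cyp2d9 of 0.21, while Cyp2j5, an arachidonic acid epoxygenase, had -0.15 and Cyp3a25 had -0.03. Shared 50-base stretches reached 40.8% in Cyp2a5, 40.5% in Cyp2d10, 30.1% in Cyp2c37, 29.0% in Cyp2d9 and 26.8% in Cyp3a25, so these values are uncertain too.

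Among the 5 transporters, 4 fold changes were below 0 (80.0%, against 45.8% of all genes tested) and the median was -0.11. Slc10a1 (NTCP), which takes up conjugated bile acids from blood, was at 565, 521 and 569 CPM with vehicle and at 508, 372 and 445 CPM with antibody, without overlap under TMM scaling (log2 fold change -0.32, SE 0.20, adjusted p = 0.775, edgeR). Abcc2 (MRP2), which exports conjugates into bile, was at 86.6, 71.4 and 113 CPM with vehicle and at 62.9, 73.6 and 332 CPM with antibody. Only liver TDB 3 lay above the vehicle range, and the log2 fold change of 0.79 (SE 0.62) became -0.40 without it. Abcb11 (BSEP), the bile salt export pump, was at 283, 222 and 282 CPM with vehicle and at 202, 188 and 394 CPM with antibody. Again liver TDB 3 alone was above the vehicle livers, and the log2 fold change was -0.004 with it and -0.42 without it. The sinusoidal uptake carriers of organic anions, Slco1b2 (928 ± 39.6 against 862 ± 223 CPM, SD, n = 3) and Slco1a1 (827 ± 98.0 against 654 ± 176 CPM), overlapped between groups and had log2 fold changes of -0.11 (SE 0.23) and -0.34 (SE 0.24).

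Liver TDB 3 was the highest of the 6 libraries for 3 of the 5 transporters and for 5 of the 39 genes (12.8%, against 35.9% of all genes tested). The log2 ratio of liver TDB 3 to the mean of liver TDB 1 and 2 had a median of 0.61 over the 7 genes with more than 4000 bases of exons (range -0.91 to 2.28) and of 0.09 over the 32 shorter ones (range -1.06 to 1.49). Abcc2, with 8532 bases the longest of the 39, had the highest ratio. Nr1i3 and Cyp7a1 were the long genes below 0. With a length term in the fit, the log2 fold change was 0.42 for Abcc2, -0.83 for Cyp8b1 and -1.02 for Nr1i3. Over all 39 genes, the length term moved the median from -0.22 to -0.14, with 28 below 0. Without liver TDB 3, the median over the 39 genes was -0.32, with 33 below 0. Without liver TDB 1 it was -0.33 (33 below 0), and without liver TDB 2 it was -0.18 (29 below 0). In each of these fits edgeR called 0 of the 39.

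**Figure D4:**
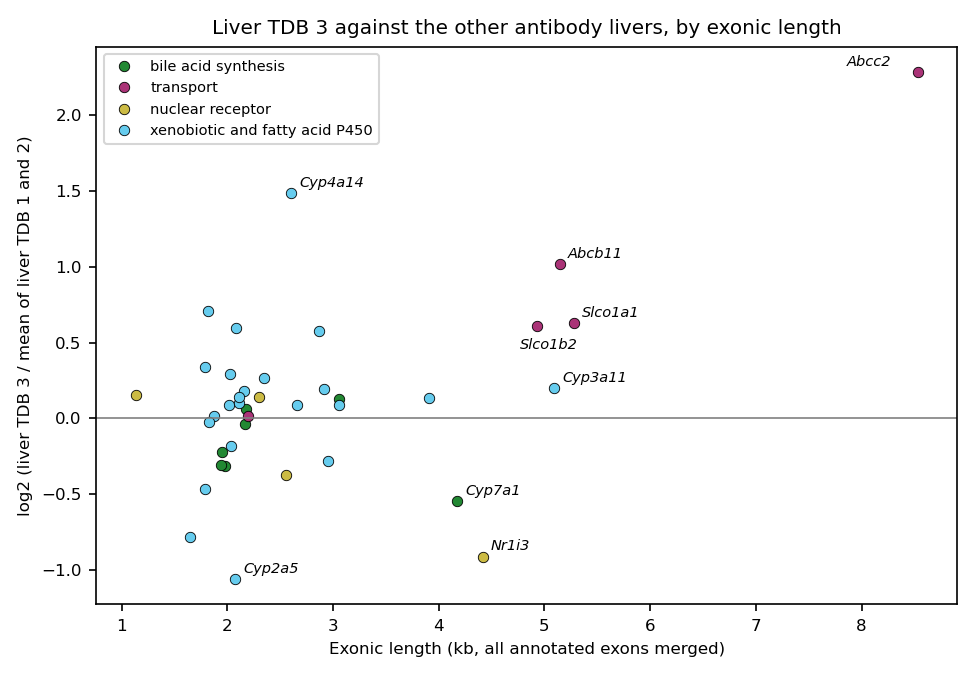
Log2 ratio of liver TDB 3 to the mean of liver TDB 1 and 2 for each of the 39 genes, against exonic length in kilobases, colored by role. Of the genes longer than 4000 bases, Abcc2 (2.28) is highest, and Nr1i3 (-0.91) and Cyp7a1 lie below 0.

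Neighboring pathways were read from lists of other genes, and in liver edgeR called members of 1 of the 7. Of all genes tested in liver, 45.8% had a fold change below 0 and 0.535% were called. Of other bile acid synthesis enzymes, 0 of 13 tested were called, 12 had a fold change below 0 and the median was -0.26. Akr1d1, the 5β-reductase that follows Cyp8b1, was at 297, 353 and 249 CPM with vehicle and at 207, 153 and 219 CPM with antibody (log2 fold change -0.64, adjusted p = 0.468, edgeR), and Akr1c6 had -0.70 (adjusted p = 0.475, edgeR). Of other transporters, 0 of 16 were called (10 below 0, median -0.18). Slc22a7, an organic anion carrier, was at 155, 142 and 157 CPM with vehicle and at 105, 82 and 66 CPM with antibody, without overlap (log2 fold change -0.84, adjusted p = 0.261, edgeR), and Slc47a1 had -0.41. Of other P450 genes, 0 of 35 were called (27 below 0, median -0.42). The lowest unadjusted p in that list were those of Cyp4a31 (log2 fold change -1.32 at 0.383 to 1.79 CPM, 9 to 32 counts a library) and Cyp2j6 (-0.53).

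Of P450 redox partners and conjugating enzymes, 0 of 36 were called, 30 were below 0 and the median was -0.33. In that list 6 genes had an unadjusted p below 0.05, all lower (against 2.25% of all genes tested). The carboxylesterase Ces2e had a log2 fold change of -0.67 (adjusted p = 0.282, edgeR). Receptor partners and hepatocyte transcription factors had 0 of 21 called, 5 below 0 and a median of 0.21. Cebpb was at 10.4, 11.0 and 14.9 CPM with vehicle and at 23.5, 20.4 and 20.8 CPM with antibody (log2 fold change 0.83, adjusted p = 0.291, edgeR), while Cebpa had -0.50 (adjusted p = 0.636, edgeR). Of bile acid feedback genes, 0 of 7 were called (3 below 0, median 0.15), with Fgf21 at -0.90 and Nr5a2, an activator of Cyp7a1 and Cyp8b1, at 0.46. Acute phase and cytokine genes had 2 of 24 called, both higher (against 0.513% of all genes tested), 5 below 0 and a median of 0.67. Of these, the cytokine signaling inhibitor Socs1 was at 0.298 to 0.560 CPM in the vehicle livers and rose to 2.09 to 3.43 CPM in the antibody livers (log2 fold change 2.62, adjusted p = 0.043, edgeR).

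The other marker lists gave median log2 fold changes in liver of 0.08 for pericentral (10 tested) and -0.31 for periportal hepatocytes (9), -0.44 for cholangiocytes (5), 0.43 for Kupffer cells (7), -0.20 for sinusoidal endothelium (5) and 0.06 for stellate cells (6). They were 0.94 for T cells (5), 0.55 for neutrophils (2), -1.03 for erythroid cells (4) and 0.36 for mammary tumor epithelium (6). Of all these genes, edgeR called Marco (Kupffer cells, log2 fold change 2.75) and Cd8a (T cells, 2.98), both higher with adjusted p = 0.043. Over all genes tested, 0.513% were called higher. In the mammary list, Wap was at 0 in all 6 liver libraries and Erbb2 was at 0.852 to 2.29 CPM. That list also holds the keratins Krt8 and Krt18, and it shares Krt19 and Epcam with the cholangiocyte list. Which cells gave its median of 0.36 in liver was not tested.

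In tumor the same genes were mostly near 0. Together they held 0.00533% to 0.0103% of the counts of a tumor library. In tumor vehicle against liver vehicle, edgeR called 39 of 39 lower, where 37.8% of 15633 genes were lower and 78.5% were called in either direction. Cyp2b9, Cyp2b10, Cyp2c38, Cyp2c40, Cyp2c54, Cyp3a13, Cyp3a25 and Cyp7a1 had 0 counts in all 3 tumor vehicle libraries, which allows up to 3 counts over the group (0.0450 CPM), so their liver vehicle means were at least 739-fold to 9354-fold higher. These limits cover counting error only. Cyp39a1 was the exception per length: 17.7 ± 2.10 TPM in tumor vehicle against 15.4 ± 2.97 TPM in liver vehicle (SD, n = 3), although its fitted tumor value was lower under TMM scaling (log2 difference -1.89). The highest tumor vehicle levels per length among the 39 genes were those of Cyp2f2 (92.4 ± 20.9 TPM against 860 ± 288 in liver) and Cyp2d22 (22.9 ± 0.929 TPM against 166 ± 54.2). The 32 genes too low to be tested in tumor had 25 to 97 counts together per tumor library, where Alb, made by hepatocytes, had 1 to 697 counts.

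Within tumor, 7 of the 39 genes passed the filter on low counts and could be tested. Of these 7, edgeR called 2, a share close to that of all genes tested. It was 28.8% of 15454 genes (15.8% higher, 13.1% lower). Cyp39a1 was at 15.8, 12.01 and 13.9 CPM in tumor vehicle 1, 2 and 3 and at 8.34, 7.10 and 10.2 CPM in tumor TDB 1, 2 and 3. It fell, with no overlap (23.1% of genes tested lay lower and 23.0% higher without overlap; log2 fold change -0.71, SE 0.16, adjusted p = 0.0116, edgeR), and the adjusted p was 0.0530 without tumor vehicle 1. Cyp7b1 was at 0.321, 0.316 and 0.309 CPM with vehicle and at 1.27, 0.645 and 0.831 CPM with antibody. It rose by 1.51 on the log2 scale (SE 0.39, adjusted p = 0.0183, edgeR) from 21 counts in all vehicle tumors to 62 in all antibody tumors, and at such counts it passed the filter through the antibody tumors. The call was lost without tumor vehicle 1 (adjusted p = 0.0567), without tumor TDB 1 (0.0750, edgeR) and with DESeq2 (0.0518).

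Cyp2d22 was at 22.9, 21.9 and 24.1 CPM with vehicle and at 18.8, 19.9 and 20.0 CPM with antibody in tumor. The groups did not overlap and were close (log2 fold change -0.23, adjusted p = 0.0752, edgeR). Cyp2f2 was at 54.6, 53.7 and 35.6 CPM with vehicle and at 22.9, 41.4 and 20.2 CPM with antibody, with tumor TDB 2 inside the vehicle range (log2 fold change -0.76, adjusted p = 0.136, edgeR, and 0.0102 without tumor TDB 2). Nr1i2, Cyp27a1 and Cyp2d10 were at 0.309 to 1.91 CPM in tumor, overlapped between groups and did not pass the test. The difference between the antibody effects in tumor and liver was tested as an interaction over all 12 libraries, without pairing tissues by mouse. There edgeR called 2.49% of 16557 genes and 0 of these 7. The estimate was 1.41 for Cyp7b1 (SE 0.38, adjusted p = 0.090, edgeR; 0.0406 with DESeq2) and -0.42 for Cyp39a1 (adjusted p = 0.645, edgeR).

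**Figure D5:**
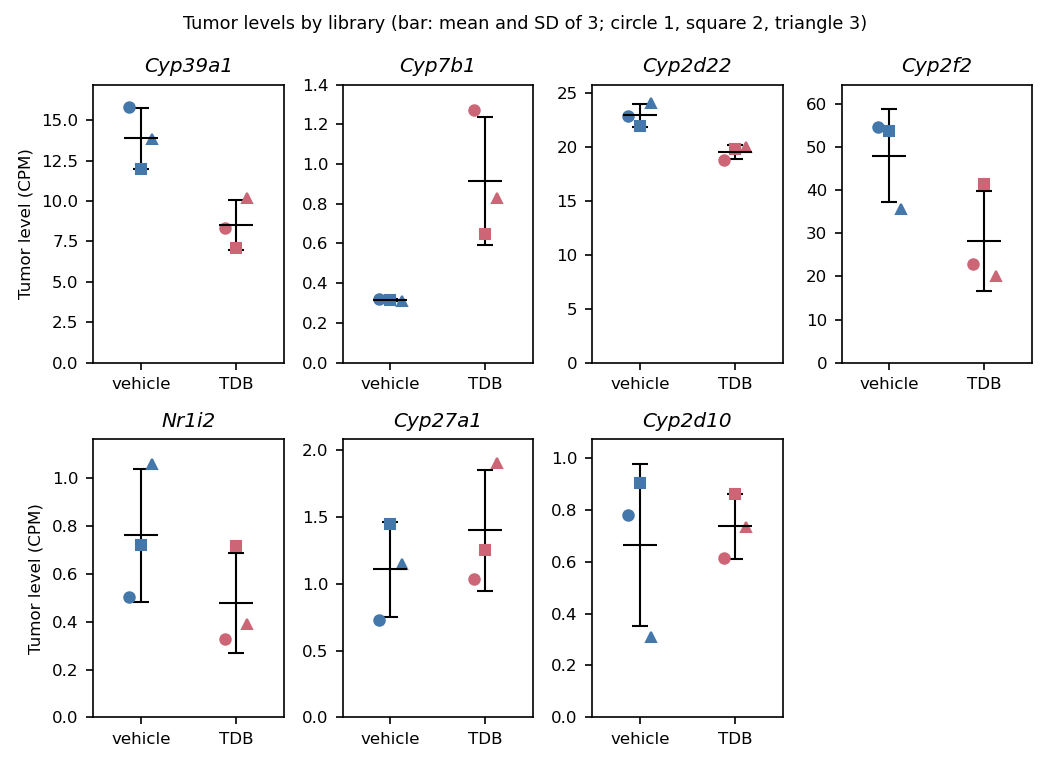
Tumor CPM by library for the 7 of 39 genes that passed the filter on low counts in tumor, with the mean and SD of 3 libraries per group. Cyp39a1 and Cyp2d22 (not called) are lower and Cyp7b1 is higher with antibody without overlap between groups. Of all genes tested in tumor, 23.1% lay lower and 23.0% higher without overlap. Cyp7b1 passed the filter through the antibody tumors (21 counts in all vehicle tumors, 62 in all antibody tumors). The axes differ between panels.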

How the data were processed

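The 12 libraries were grouped by tissue and treatment from their titles, 3 per group. The authors deposited whole-number counts per Ensembl gene, not normalized, and FPKM values. GSNAP, limma and the build GRCm38 are named per the submitters' processing notes, without role. The counter, the annotation, strand and filters: not given in the sources used here. The deposited FPKM values were divided by a length that, for 84.3% of 14141 genes, matched the whole gene with introns to within 1%, so FPKM served only as an alternative (log2 of the value plus 1 or 0.1). GENCODE M21 matched 52489 of 52636 identifiers.

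Counts were tested with edgeR 4.0.16 (R 4.3.3): filterByExpr (min.count 10, min.total.count 15), TMM scaling, robust quasi-likelihood fit, Benjamini-Hochberg adjustment over all genes tested, threshold 0.05. The comparisons used 6 libraries each, and the interaction 12. CPM are scaled by the TMM factors of the comparison within each tissue. TPM were computed from counts and merged exonic length. DESeq2 1.42.0 and limma-voom 3.58.1 were alternatives, beside other scalings, filters, a length offset, a replicate block and leaving out each library. The analysis was tested on simulated data. Replicate numbers do not mark shared mice in the labels. P-values within a tissue measure the spread between 3 mice per treatment. Going by the design text, liver and tumor came from the same mice, but no label ties their libraries. The main fits across tissues, the interaction among them, therefore treated all libraries as independent.

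The 39 genes, the 7 pathway lists, the 11 marker lists and the naming rule were chosen with earlier results of these data known. Per-library values were to be given for genes with an unadjusted p below 0.05 in liver, Cyp7a1, Cyp27a1, Cyp8b1, Cyp7b1, the 4 receptors and the 5 genes highest per length in liver vehicle. Of each other pathway list, the called genes were named, or else the 2 with the lowest unadjusted p. Some genes that this rule names are not reported here. Shared sequence is the percent of 50-base stretches of the longest transcript found, as they stand or as reverse complement, in transcripts of other genes.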

Additional observations from a re-analysis of the deposited data

How the results depend on the processing

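Only 3 libraries per group enter each test. The number of genes called in liver was 73 and became 145 without a filter, 320 with DESeq2, 26 with FPKM plus 1, 25 with FPKM plus 1 and no filter, 323 with all 12 libraries in the fit, 177 with a length offset, and 14 (without liver vehicle 2) to 163 (without liver TDB 3) when 1 library was left out. Of the 39 genes, 0 were called lower in liver, and DESeq2 called 1. In tumor 4456 genes were called, 2844 with FPKM plus 1 and no filter, 1695 with all 12 libraries in the fit, and 2942 to 4860 when 1 library was left out. Of the 39 genes, 1 was called higher in tumor, against 0 with DESeq2, with FPKM plus 1 or 0.1 and with FPKM plus 1 and no filter, and 0 to 1 when 1 library was left out. The count called lower was 1, and 2 with upper quartile factors, with total-count scaling and with FPKM plus 1 or 0.1, and 0 to 2 when 1 library was left out. The interaction called 412 genes, 856 with DESeq2, and 241 to 696 when 1 library was left out, and DESeq2 called 1 of the 39 higher. Tumor vehicle against liver vehicle gave 39 of 39 lower under every alternative run. The causes of these differences were not tested.

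In levels set against the group mean, same-numbered liver libraries correlated at -0.09, 0.46 and 0.61 and same-numbered tumor libraries at 0.06, 0.02 and 0.26. Not every library correlated best with its own number: liver TDB 1 did so with liver vehicle 2 (0.52). So few values cannot decide whether a number marks libraries handled together, and the labels do not say. A replicate block in the fit raised the liver count to 350 of 13657 genes tested and, with a length offset, to 635, in either direction. The block called 4 of the 39 lower in both (Cyp4a10, Cyp4a14, Cyp8b1 and Nr1i3). The share of all genes called lower in these fits is not given here. In tumor the block called 4622 genes, and 4557 with a length offset, with 2 of the 39 lower in both. The interaction with the block called 258 genes.

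Among the values of the 39 genes under all alternatives, 42 changed sign, 41 of them for estimates within 1 SE of 0. In liver, leaving out 1 library at a time gave log2 fold changes on both sides of 0 for Cyp1a2 (-0.28 to 0.025), Cyp2a5 (-0.21 to 0.53), Cyp2c39 (-0.23 to 0.15), Cyp2c70 (-0.040 to 0.19), Cyp2d9 (-0.028 to 0.83), Cyp3a25 (-0.26 to 0.17), Cyp7b1 (-0.11 to 0.17), Baat (-0.025 to 0.24), Abcb11 (-0.42 to 0.16), Abcc2 (-0.40 to 1.16), Nr0b2 (-0.47 to 0.052) and Nr1i2 (-0.35 to 0.037), and in tumor for Cyp2d10 (-0.18 to 0.45) and for the interaction of Cyp2d22 (-0.088 to 0.26). The sign also changed in liver with a length offset for Cyp1a2 (0.034, and 0.040 with the block), Cyp3a25 (0.16, and 0.090 with the block) and Nr0b2 (0.0075). With total-count scaling it changed for Cyp3a25 (0.078), Slco1b2 (0.017) and Abcb11 (0.12). Cyp2c39 gave -0.014 with upper quartile factors, -0.0074 with all 12 libraries, -0.058 with FPKM plus 1, with or without a filter, and -0.066 with FPKM plus 0.1. Cyp7b1 gave -0.0093 with FPKM plus 1, with or without a filter, and -0.021 with FPKM plus 0.1.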
